A study of Mus musculus with 18 samples.

Results

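The cells compared here were mouse CD8+ T cells that received a CRISPR guide against Nur77 or a scrambled guide, in the culture arm to which no LCA was added. Of the 18 RNA-seq libraries of the study, 6 enter this comparison: the 3 titled Nur77 and given the genotype KO, and the 3 titled WT, both with the treatment given as control. Per the labels, naïve CD8+ T cells were isolated, edited with CRISPR ribonucleoprotein and a Synthego guide kit, activated with anti-CD3 and anti-CD28 antibodies, and cultured overnight. The other 12 libraries are the same guides at 10 µM and 50 µM LCA, 3 libraries for each guide and dose, and they are used below only to see the guide comparison again in other libraries. RNA was extracted with a Qiagen kit and turned into cDNA libraries by an ultra-low input protocol. The cells titled WT received the scrambled guide and are called scrambled-guide cells here. The labels use both knockdown and knockout for the edited cells, which are called Nur77-guide cells here. Guide sequences and the share of edited alleles are not used here, and the labels do not say whether the 3 libraries of a group came from separate mice or cultures. If they did not, the p-values describe technical spread alone.

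Nur77 is the protein of Nr4a1, one of the 3 NR4A orphan nuclear receptors, with Nr4a2 (Nurr1) and Nr4a3 (Nor1). It is an immediate early gene: stimulation of the T cell receptor switches it on within hours, and the protein binds DNA as a monomer at an extended half-site called NBRE, without a known activating hormone. In T cells the family is known for restraining the response to antigen and for its part in exhaustion, the state of reduced function that follows long stimulation. CD8+ T cells are the cytotoxic arm of the adaptive response, and naïve ones that are activated lose resting genes such as Klf2 while they gain effector genes such as Gzmb.

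No difference in the read count of the targeted gene was detected between the guides. Nr4a1 (chr15:101253902-101274795, GRCm38) had 61, 41 and 71 reads in the Nur77-guide libraries, against 55, 58 and 29 reads in the scrambled-guide libraries, and the ranges overlapped. On the CPM scale, which sets counts against TMM-scaled library totals, this was 10.6 ± 2.48 in Nur77-guide cells and 9.60 ± 3.24 in scrambled-guide cells (SD, n = 3 each). The log2 fold change, Nur77 guide over scrambled guide throughout, was 0.14 ± 0.33 (SE), with a Benjamini-Hochberg adjusted p of 0.963 by edgeR's quasi-likelihood test over all tested genes. A gene-level count sums reads over the whole transcript and cannot show a small insertion or deletion at a cut site, so these totals do not check the edit. No difference was detected in the paralogs either. Nr4a2 had 12.2 ± 0.407 CPM in Nur77-guide cells and 10.7 ± 2.47 CPM in scrambled-guide cells (log2 fold change 0.18 ± 0.26, adjusted p = 0.938). Nr4a3 had 5.25 ± 2.66 CPM in Nur77-guide cells and 5.75 ± 1.88 CPM in scrambled-guide cells (log2 fold change -0.14 ± 0.33, adjusted p = 0.963). With counts this low, the standard errors leave room for changes of either direction in all 3 receptors. None of the 26 tested genes that start within 1 Mb of the start of Nr4a1, itself included, passed the test. Acvr1b, an activin receptor kinase nearby, had a log2 fold change of -1.27 ± 0.59 (adjusted p = 0.535).

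The 6 libraries held 4880100 to 5945518 counts, and 15032 to 16874 genes had at least 1 count in a library. Markers of the labelled cell type were present: Cd3e, a chain of the T cell receptor complex, lay at 423, 461 and 458 CPM in Nur77-guide cells and at 465, 453 and 480 CPM in scrambled-guide cells. Cd4 had no read in Nur77-guide libraries and 5, 0 and 0 reads in scrambled-guide libraries. The 12 measured CD8 T cell markers summed to 5470 to 5590 CPM in Nur77-guide cells and 5630 to 5840 CPM in scrambled-guide cells. On the first principal component, which held 30% of the variance of log2 CPM over these 6 libraries, the Nur77-guide libraries (-19.5 to -14.3) and the scrambled-guide libraries (12.6 to 22.7) were apart. The second component (20.3%) held mainly the distance between scrambled-guide replicate 2 (-29.4) and scrambled-guide replicate 3 (16.1).

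Of 11651 genes tested, 73 (0.627%) passed an adjusted p of 0.05: 38 (0.326%) were higher and 35 (0.3%) lower in Nur77-guide cells. At an unadjusted p under 0.05 there were 1013. Among the genes called, 10 of the higher and 15 of the lower ones changed at least 2-fold, and in each of the 73 the 3 Nur77-guide values lay outside the range of the 3 scrambled-guide values, which was also so in 15.9% of all tested genes (8.35% with Nur77-guide cells higher, 7.51% with them lower). The median log2 fold change over all tested genes was -0.000872 and the median standard error 0.153. The number of calls fell whichever of the 6 libraries was left out. It was 28 without Nur77-guide replicate 2, 34 without Nur77-guide replicate 1 and 39 without Nur77-guide replicate 3. It was 32 without scrambled-guide replicate 1 and 35 without scrambled-guide replicate 3. The smallest loss, without scrambled-guide replicate 2, left 53 calls, 42 of them among the 73. No gene among the 73 changed sign in any of these refits, and 20 were called in all 6: Il7r, Upp1, Ttc39c, Il24, Il12rb2, Malt1, H2-Q10, Nedd4 and Themis, which were higher, and Dapl1, Klrc1, Lyz2, Hsd11b1, Rgcc, Napsa, Itga2b, Tspan32, Spry1, Clec4n and Ctss, which were lower. The other calls were lost in 1 or more refits. Calls lost in all 6 include those on Id2, Bst1, Faah, Stc2, Zfp831, Eps8, Frmd4a, Rhoq and Ralb.

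**Figure D1:**
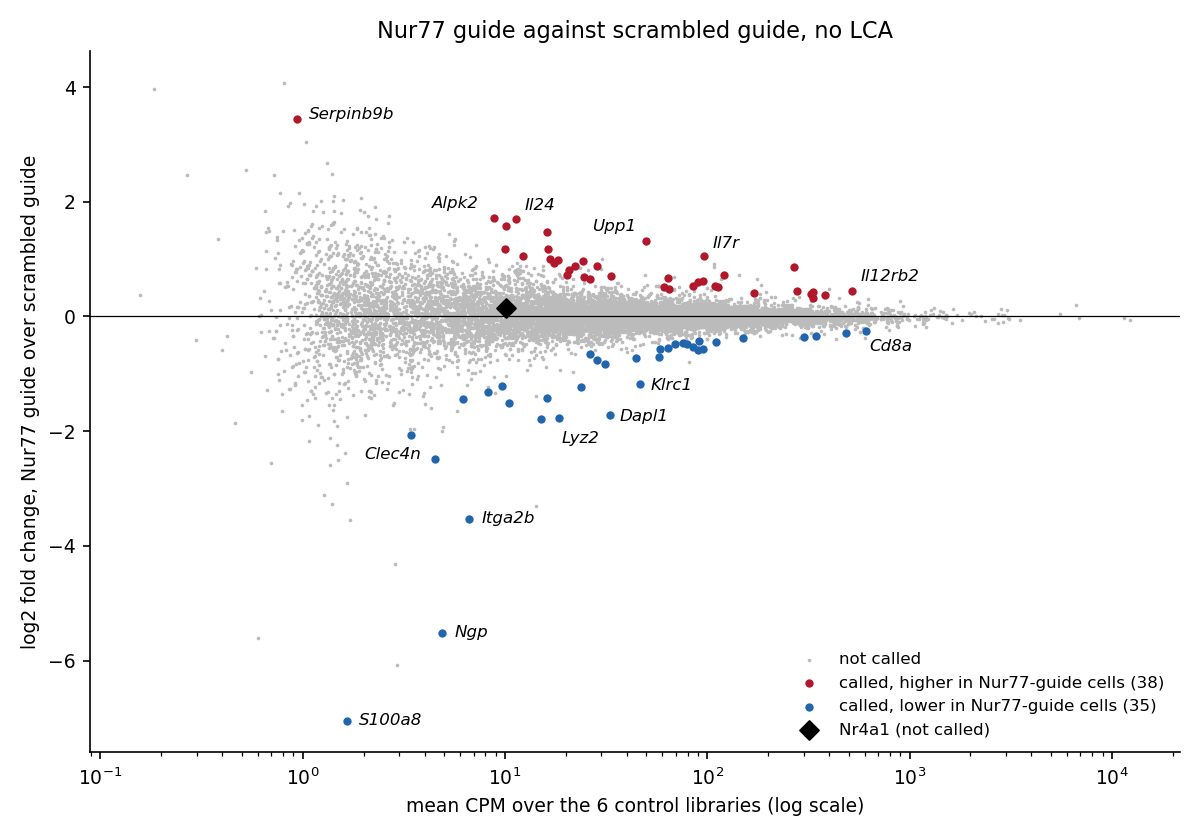
Each point is 1 of the 11651 tested genes, with its mean CPM over the 6 control libraries on the x axis (log scale) and its log2 fold change, Nur77 guide over scrambled guide, on the y axis. The 38 genes called higher (red) and the 35 called lower (blue) lie at low and at high levels, Nr4a1 (black diamond) sits near 0 at 0.14, and the points of S100a8 and Ngp below -5 rest on libraries with 0 to 3 reads, so their height depends on the fit's prior count.

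Cytokine receptors and other surface receptors were among the clearest higher genes. Il7r, the interleukin 7 receptor chain that keeps naïve and memory T cells alive, stood at 128, 142 and 121 CPM in Nur77-guide cells, against 57.6, 70.3 and 60.5 CPM in scrambled-guide cells. All 3 Nur77-guide libraries lay above all 3 scrambled-guide libraries, and the log2 fold change was 1.06 ± 0.11 (adjusted p = 1.72e-07). Il12rb2, the signalling chain of the interleukin 12 receptor, had 578, 599 and 628 CPM in Nur77-guide cells and 419, 455 and 454 CPM in scrambled-guide cells (log2 fold change 0.44 ± 0.07, adjusted p = 0.000851). It was the most abundant of the higher genes, and its change was small beside that of Il7r. Il24, a cytokine of the interleukin 10 family, had 18.4, 12.8 and 21 CPM in Nur77-guide cells, against 4.75, 4.99 and 6.27 CPM in scrambled-guide cells (log2 fold change 1.70 ± 0.24, adjusted p = 4.93e-05). Tnfrsf8, which encodes CD30 of the tumour necrosis factor receptor family, had 12.2, 14.1 and 15 CPM in Nur77-guide cells and 5.16, 6.39 and 6.88 CPM in scrambled-guide cells (log2 fold change 1.17 ± 0.28, adjusted p = 0.0367). The groups did not overlap, but the call on Tnfrsf8 was lost in all 6 refits that left out a library. Il10rb, a shared chain of the interleukin 10 family receptors, went the other way, with 93.8 ± 6.09 CPM in Nur77-guide cells and 127 ± 6.67 CPM in scrambled-guide cells (log2 fold change -0.44 ± 0.10, adjusted p = 0.0169).

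Receptors for lipids and nucleotides followed. Ltb4r1, the high-affinity receptor for the chemoattractant leukotriene B4, had 24.9, 33.2 and 27.9 CPM in Nur77-guide cells, against 13.6, 15.8 and 17.4 CPM in scrambled-guide cells (log2 fold change 0.88 ± 0.17, adjusted p = 0.00438). P2ry14, a receptor for UDP-sugars, had 124, 135 and 130 CPM in Nur77-guide cells and 79.5, 107 and 82.1 CPM in scrambled-guide cells (log2 fold change 0.53 ± 0.12, adjusted p = 0.0308). The orphan receptor Gpr141 (log2 fold change 1.17 ± 0.22) and the receptor tyrosine kinase Axl (0.71 ± 0.14) were higher too, with adjusted p of 0.00303 and 0.00707. Bst1, the ectoenzyme CD157, had 15.2, 14.9 and 15.2 CPM in Nur77-guide cells and 6.19, 5.19 and 3.84 CPM in scrambled-guide cells (log2 fold change 1.57 ± 0.34, adjusted p = 0.0169). Lilr4b, an immunoglobulin-like receptor, and H2-Q10, a class Ib MHC gene, were higher by 0.66 ± 0.12 and 1.48 ± 0.28 on the log2 scale (adjusted p of 0.00303 and 0.00397), but both have near-identical copies among which reads can be split. In the list of 33 tested cytokine and chemokine receptors, 2 were called higher (Il7r and Il12rb2) and none lower. This was 6.06% of the list, against 0.627% of all tested genes, and the median log2 fold change was 0.0334. The list does not hold Il10rb, which was called lower. Ccr2, a chemokine receptor of inflammatory cells, did not pass at 148, 130 and 145 CPM in Nur77-guide cells, against 60.5, 87.5 and 76.5 CPM in scrambled-guide cells (log2 fold change 0.91 ± 0.37, adjusted p = 0.482).

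**Figure D2:**
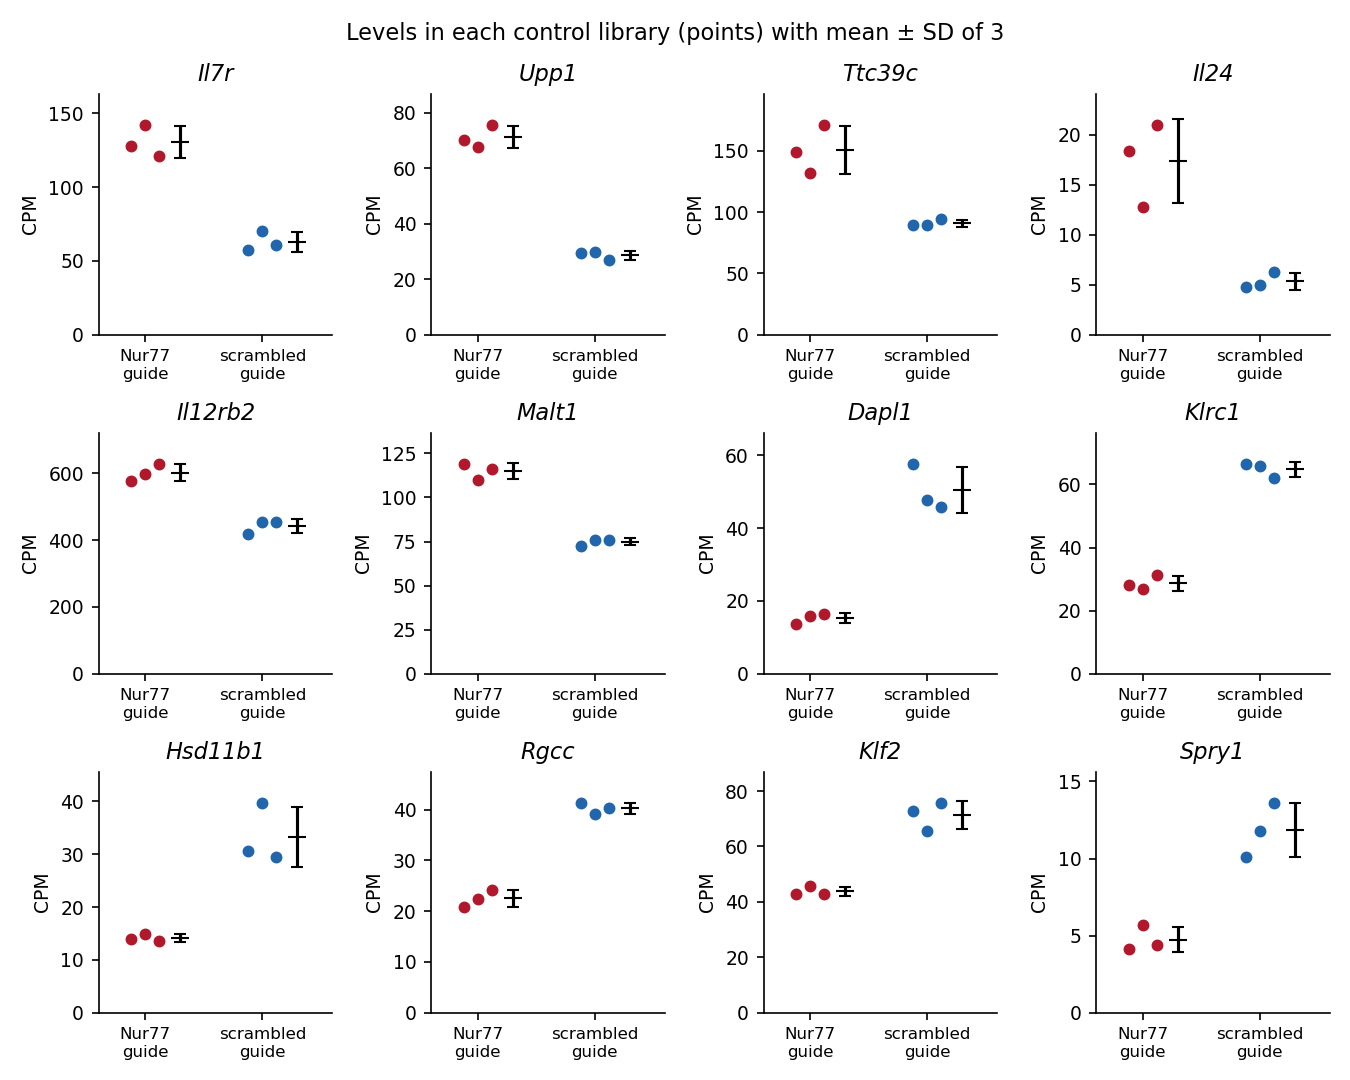
CPM (y axis, from 0) of 12 called genes in each of the 3 Nur77-guide libraries (red, left) and the 3 scrambled-guide libraries (blue, right), with the mean ± SD of 3 beside each group. The 6 genes from Il7r to Malt1 are higher in every Nur77-guide library than in any scrambled-guide library, and the 6 from Dapl1 to Spry1 are lower.

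Genes that mark naïve and memory CD8+ T cells moved apart from one another. Dapl1, a transcript that is high in naïve and central memory CD8+ T cells, had 13.8, 15.8 and 16.4 CPM in Nur77-guide cells, against 57.6, 47.7 and 45.9 CPM in scrambled-guide cells. Its log2 fold change, the lowest in the list of naïve and memory genes, was -1.71 ± 0.19 (adjusted p = 4.22e-07). Klf2, a transcription factor of resting T cells that drives genes of recirculation, had 42.7, 45.8 and 42.9 CPM in Nur77-guide cells and 72.7, 65.7 and 75.7 CPM in scrambled-guide cells (log2 fold change -0.70 ± 0.15, adjusted p = 0.0157). In the list of 27 naïve and memory genes, 1 was called higher (Il7r) and 2 lower (Dapl1 and Klf2), and the median was -0.123. Of the 27 values 9 were above 0, against 49.7% over all tested genes. The calls were 11.1% of the list, against 0.627% of all tested genes. Of the members that did not pass, Satb1 had the smallest adjusted p (0.0671) and was higher (log2 fold change 0.31). Its means were 686.5 CPM in Nur77-guide cells and 554.8 CPM in scrambled-guide cells. A further 3 members that did not pass are given here because of their values. Id3, an inhibitor of E proteins, had 55.1, 55.1 and 67.1 CPM in Nur77-guide cells, against 103, 86.1 and 119 CPM in scrambled-guide cells (log2 fold change -0.79 ± 0.19, adjusted p = 0.0714). Tcf7, which encodes TCF1, the transcription factor of stem-like T cells, had 332, 324 and 352 CPM in Nur77-guide cells, against 435, 411 and 402 CPM in scrambled-guide cells (log2 fold change -0.31 ± 0.10, adjusted p = 0.188). Ly6c1, a surface protein of memory cells with a close paralog, had 9.68, 11.5 and 9.3 CPM in Nur77-guide cells, against 4.54, 3.59 and 4.65 CPM in scrambled-guide cells (log2 fold change 1.25 ± 0.36, adjusted p = 0.136). In Id3, Tcf7 and Ly6c1 the groups did not overlap, which was also so in 15.9% of all tested genes.

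Components of T cell receptor signalling changed in both directions. Malt1, the paracaspase that links the receptor to NF-κB, had 119, 110 and 116 CPM in Nur77-guide cells, against 72.5, 76.1 and 75.9 CPM in scrambled-guide cells (log2 fold change 0.62 ± 0.10, adjusted p = 0.000851). Themis, a protein that tunes the signal of the receptor, had 369 ± 13.4 CPM in Nur77-guide cells and 283 ± 11.7 CPM in scrambled-guide cells (log2 fold change 0.38 ± 0.07, adjusted p = 0.00312). Spry1, a feedback inhibitor of the MAP kinase branch, had 4.15, 5.66 and 4.39 CPM in Nur77-guide cells and 10.1, 11.8 and 13.6 CPM in scrambled-guide cells (log2 fold change -1.32 ± 0.25, adjusted p = 0.00456). Dusp2, a phosphatase of MAP kinases, had 66.6, 68.1 and 63.4 CPM in Nur77-guide cells and 105, 78.1 and 93.3 CPM in scrambled-guide cells (log2 fold change -0.48 ± 0.11, adjusted p = 0.0271). Other feedback inhibitors of this branch in the list of induced genes did not pass (adjusted p of 0.329 for Spry2, 0.973 for Dusp5 and 0.998 for Dusp6). The call on Dusp2 held in 1 of the 6 refits without a library and that on Spry1 in all 6. Prkch (protein kinase C eta), Cd6 and Cd48, which modulate or costimulate the receptor, were lower by modest amounts, with log2 fold changes of -0.34 ± 0.07, -0.38 ± 0.08 and -0.36 ± 0.07 and adjusted p of 0.0134, 0.0164 and 0.0115. Cd8a, a coreceptor chain, had 556, 539 and 570 CPM in Nur77-guide cells, against 666, 653 and 656 CPM in scrambled-guide cells (log2 fold change -0.25 ± 0.06, adjusted p = 0.0418). Its partner chain Cd8b1 had 816, 779 and 767 CPM in Nur77-guide cells, against 767, 754 and 753 CPM in scrambled-guide cells (log2 fold change 0.05 ± 0.07, adjusted p = 0.934). The call on Cd8a was the weakest of these and was lost whenever any library was left out.

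In the list of 30 genes that T cell receptor stimulation induces, 10% were called, against 0.627% of all tested genes. With a median of 0.0189, the list had 1 member called higher and 2 lower. The higher one was Batf3, a transcription factor of the AP-1 family, at 73.1, 66.6 and 77.2 CPM in Nur77-guide cells, against 54.5, 47.1 and 49.8 CPM in scrambled-guide cells (log2 fold change 0.52 ± 0.12, adjusted p = 0.0194). Of the early growth response factors, which the receptor induces alongside Nr4a1, Egr2 had 2, 3 and 1 reads in Nur77-guide libraries and 23, 5 and 15 reads in scrambled-guide libraries (log2 fold change -2.90 ± 0.80, adjusted p = 0.108). Egr1 had 11.7, 10.4 and 6.42 CPM in Nur77-guide cells and 23.3, 14.4 and 13.1 CPM in scrambled-guide cells (log2 fold change -0.85 ± 0.28, adjusted p = 0.243). Neither passed. Their groups did not overlap, as in 15.9% of all tested genes, and both are named because of these values. Cd5, an inhibitory receptor whose level follows the strength of the signal, also missed the threshold, with 63.4, 59 and 60.7 CPM in Nur77-guide cells and 80.7, 80.3 and 90.2 CPM in scrambled-guide cells (log2 fold change -0.46 ± 0.12, adjusted p = 0.0671).

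The transcriptional regulators Id2, Bhlhe40, Jdp2 and Jarid2 were higher in Nur77-guide cells, by less than 2-fold, and Zfp831 was lower. Id2, an inhibitor of E proteins that favours effector CD8+ T cells, had 432, 432 and 428 CPM in Nur77-guide cells and 305, 350 and 341 CPM in scrambled-guide cells (log2 fold change 0.38 ± 0.09, adjusted p = 0.0271). Bhlhe40, a repressor induced by activation, had 369, 369 and 374 CPM in Nur77-guide cells and 322, 289 and 277 CPM in scrambled-guide cells (log2 fold change 0.33 ± 0.08, adjusted p = 0.0329). Jdp2, an AP-1 family repressor, had 41.9, 33.4 and 35.2 CPM in Nur77-guide cells and 22.7, 13.4 and 23.9 CPM in scrambled-guide cells (log2 fold change 0.88 ± 0.18, adjusted p = 0.00707). Jarid2, a partner of Polycomb complex PRC2, was higher by 0.53 ± 0.12 (adjusted p = 0.0339). The zinc finger gene Zfp831, whose function is less well known, had 1.78, 1.51 and 0.676 CPM in Nur77-guide cells and 4.96, 5.99 and 5.66 CPM in scrambled-guide cells (log2 fold change -2.07 ± 0.51, adjusted p = 0.048).

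Among effector genes and inhibitory receptors, 1 gene fell and 1 rose. Klrc1, which encodes the inhibitory receptor NKG2A, had 28, 26.8 and 31.3 CPM in Nur77-guide cells, against 66.5, 65.7 and 62.1 CPM in scrambled-guide cells (log2 fold change -1.17 ± 0.14, adjusted p = 1.33e-06). Klrc1 was the only called member of the 18 inhibitory receptors tested (5.56%, against 0.627% of all tested genes). Of these 18 receptors 3 had a value above 0, against 49.7% of all tested genes, and the median was -0.229. Pdcd1, which encodes PD-1, had 34.4, 33.2 and 38 CPM in Nur77-guide cells and 46.5, 41.9 and 46.5 CPM in scrambled-guide cells, and did not pass (log2 fold change -0.35 ± 0.19, adjusted p = 0.661). Nt5e, the ectoenzyme CD73, did not pass either (log2 fold change -1.23 ± 0.36, adjusted p = 0.146). Among 25 effector genes, Id2 was called higher and Klrc1 lower (8%, against 0.627% of all tested genes), and the median was -0.0199. The call on Klrc1 held in all 6 refits without a library, and that on Id2 was lost in all 6. Gzmb, the cytotoxic protease granzyme B, had 6930, 6990 and 7580 CPM in Nur77-guide cells and 6010, 6410 and 6250 CPM in scrambled-guide cells, with a log2 fold change of 0.20 ± 0.18 (adjusted p = 0.876). The chemokine Xcl1 had 2.17, 1.32 and 4.73 CPM in Nur77-guide cells and 16.7, 5.59 and 4.05 CPM in scrambled-guide cells, and Ifng had 0, 3.39 and 0.845 CPM in Nur77-guide cells and 3.92, 2.4 and 3.24 CPM in scrambled-guide cells. Neither passed (adjusted p of 0.185 and 0.824), nor did the chemokines Ccl3 and Ccl4 (adjusted p of 0.439 and 0.503), and the groups overlapped in Xcl1 and Ifng.

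Among enzymes of metabolism, Upp1 was higher and Hsd11b1 and Faah were lower. Upp1, uridine phosphorylase, which splits uridine into uracil and a ribose phosphate, had 70.3, 67.7 and 75.6 CPM in Nur77-guide cells, against 29.3, 29.8 and 26.9 CPM in scrambled-guide cells. Its log2 fold change was 1.31 ± 0.13 (adjusted p = 1.72e-07), and it lay between 1.26 and 1.35 in the 14 other fits without a minimum fold change. Hsd11b1, the enzyme that regenerates active glucocorticoid inside cells, had 14, 14.9 and 13.5 CPM in Nur77-guide cells, against 30.6, 39.7 and 29.5 CPM in scrambled-guide cells (log2 fold change -1.23 ± 0.19, adjusted p = 0.000286). Faah, which degrades fatty acid amides, had 57.7 ± 1.07 CPM in Nur77-guide cells and 80.9 ± 1.70 CPM in scrambled-guide cells (log2 fold change -0.49 ± 0.11, adjusted p = 0.0225). Chsy1, a chondroitin sulfate synthase, had 197, 194 and 194 CPM in Nur77-guide cells and 136, 151 and 153 CPM in scrambled-guide cells (log2 fold change 0.41 ± 0.08, adjusted p = 0.00312). Fam213a, a peroxiredoxin-like protein, was higher by 0.99 ± 0.22 on the log2 scale (adjusted p = 0.0182).

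Lists of amino acid and hypoxia genes had medians above 0 and few calls. Asns, asparagine synthetase, had 318, 334 and 304 CPM in Nur77-guide cells, against 223, 254 and 227 CPM in scrambled-guide cells (log2 fold change 0.44 ± 0.09, adjusted p = 0.0164). Stc2, stanniocalcin 2, had 31, 28.7 and 36.7 CPM in Nur77-guide cells and 21.9, 18 and 21.6 CPM in scrambled-guide cells (log2 fold change 0.65 ± 0.16, adjusted p = 0.038). These were the only calls among 46 tested targets of ATF4, the transcription factor of the amino acid response. They were 4.35% of the list, against 0.627% of all tested genes. In that list 41 of 46 values were above 0 and the median was 0.128, where 49.7% of all tested genes were above 0. Nupr1, the ATF4 target with the highest value, did not pass (log2 fold change 1.43 ± 0.41, adjusted p = 0.141). P4ha2, a subunit of collagen prolyl hydroxylase, had 37.1, 31.5 and 27.7 CPM in Nur77-guide cells, against 17.8, 18 and 13.8 CPM in scrambled-guide cells (log2 fold change 0.96 ± 0.21, adjusted p = 0.021). P4ha2 and Bhlhe40 were the 2 called of 21 hypoxia genes (9.52%), 18 of which were above 0, with a median of 0.154. By contrast 2 of 24 cholesterol synthesis genes and 5 of 32 mitosis genes were above 0, with medians of -0.0821 and -0.0776 and no member called. Genes of a pathway are not independent, and no test of the lists was made. Of the 6 refits that left out a library, the calls on P4ha2 and Bhlhe40 each held in 1. Asns was called in 2 of these refits and Stc2 in 0.

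The interferon response list had 1 called gene of 56 (1.79%, against 0.627% of all tested genes), the lower gene Ifi203. Its levels were 47.8, 45.8 and 47.5 CPM in Nur77-guide cells and 74.3, 67.9 and 66.1 CPM in scrambled-guide cells (log2 fold change -0.56 ± 0.14, adjusted p = 0.0499). Ifitm2, an interferon-induced membrane protein gene outside the list, was called higher. It had 352, 339 and 347 CPM in Nur77-guide cells and 207, 166 and 198 CPM in scrambled-guide cells (log2 fold change 0.86 ± 0.17, adjusted p = 0.0339). The calls on Ifi203 and Ifitm2 were lost in all 6 refits that left out a library. No member was called among 27 p53 targets, 25 apoptosis genes, 21 STAT5 targets, 14 costimulatory receptors, 39 adhesion and cytoskeleton genes, 24 chaperones of the endoplasmic reticulum, 13 heat shock genes, 22 NRF2 targets, 24 genes of fatty acid synthesis and LXR, 20 of fatty acid oxidation, 24 of glycolysis, 42 of the respiratory chain, 40 of DNA replication and 51 cytosolic ribosomal proteins. Their medians lay between -0.0178 for DNA replication and 0.104 for NRF2 targets.

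**Figure D3:**
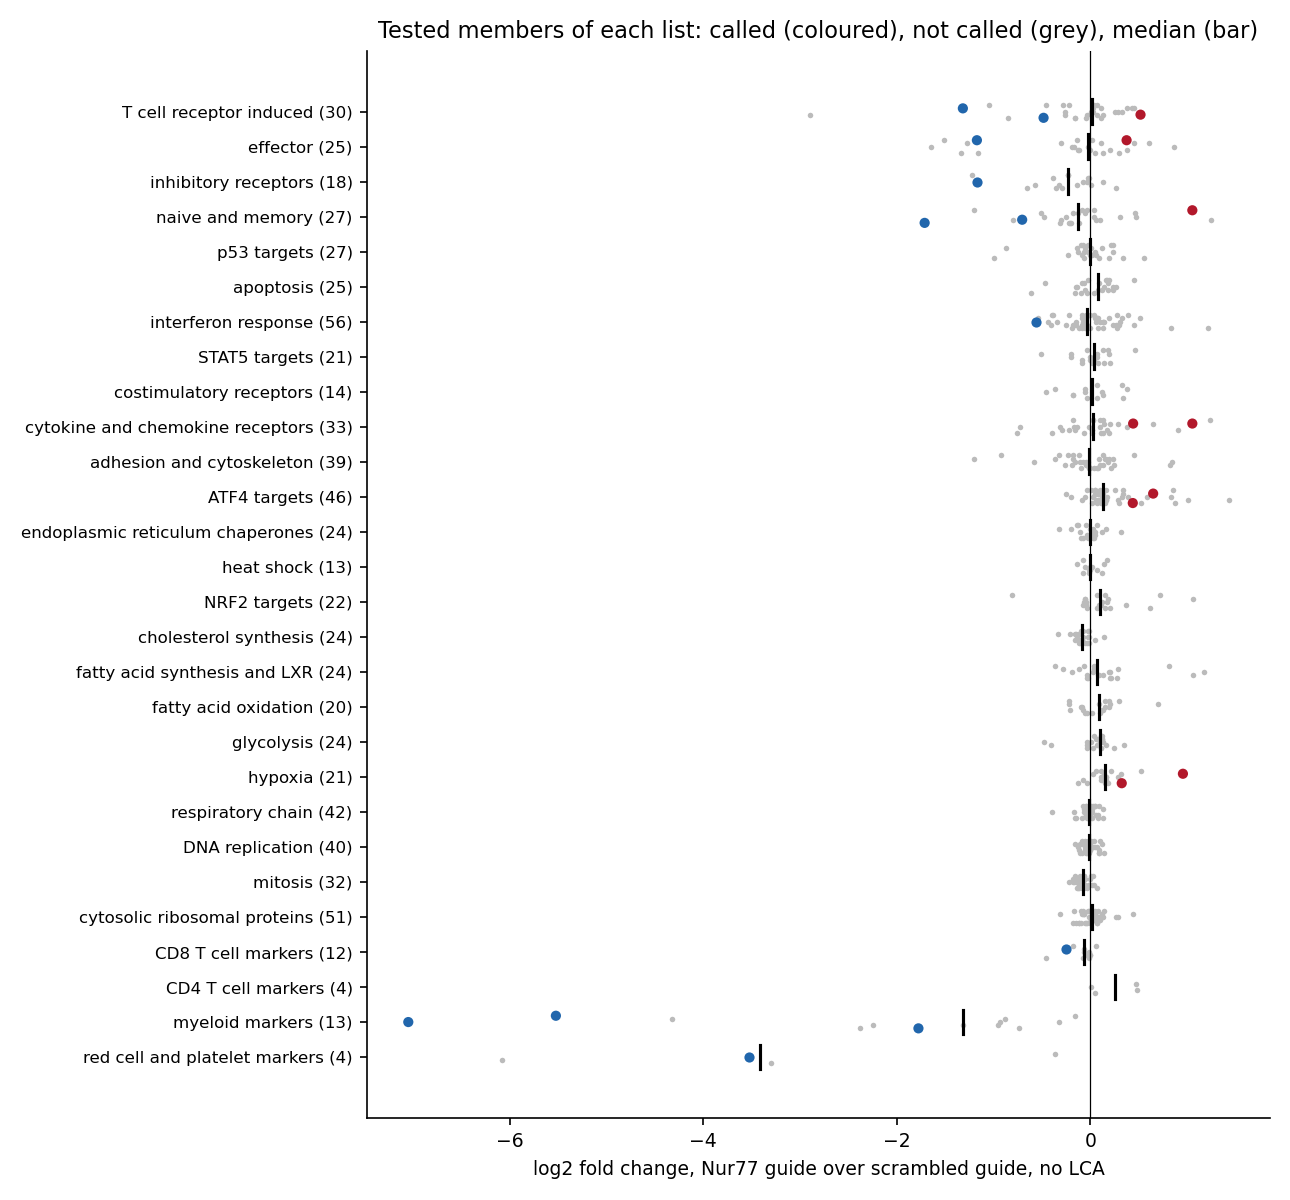
Log2 fold change, Nur77 guide over scrambled guide without LCA, of each tested member of the gene lists (number tested in brackets). Called members are coloured red (higher) or blue (lower), the rest are grey, and the median is a black bar. The Nr4a, B cell, NK and gamma delta T cell, and sex chromosome lists are not drawn. Most lists centre near 0 with at most 3 coloured points, and the myeloid and the red cell and platelet markers lie to the left, with medians of -1.31 and -3.41.

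Among called genes outside the lists, several act in the cytoskeleton, in trafficking and at the cell surface. Ttc39c, a tetratricopeptide repeat protein, had 149, 132 and 171 CPM in Nur77-guide cells, against 89.4, 89.3 and 94.3 CPM in scrambled-guide cells (log2 fold change 0.73 ± 0.10, adjusted p = 3.53e-05). Alpk2, an alpha kinase, had 12.8, 13.6 and 14.2 CPM in Nur77-guide cells, against 2.68, 4.39 and 5.26 CPM in scrambled-guide cells (log2 fold change 1.71 ± 0.31, adjusted p = 0.00303). The ubiquitin ligase Nedd4 had 132 ± 8.39 CPM in Nur77-guide cells and 92.8 ± 4.74 CPM in scrambled-guide cells (log2 fold change 0.51 ± 0.09, adjusted p = 0.0023). The actin regulator Eps8, the scaffold Frmd4a, the kinase Pak6 and the small GTPases Rhoq and Ralb were also higher, by 1.00 ± 0.25, 1.06 ± 0.25, 0.94 ± 0.20, 0.48 ± 0.10 and 0.71 ± 0.18 on the log2 scale, with adjusted p from 0.011 for Pak6 to 0.0499 for Ralb. On the lower side, Rgcc, a regulator of the cell cycle, had 20.9, 22.4 and 24.2 CPM in Nur77-guide cells, against 41.3, 39.1 and 40.3 CPM in scrambled-guide cells (log2 fold change -0.83 ± 0.14, adjusted p = 0.000819). Napsa, an aspartic protease, had 3.75, 6.22 and 6.25 CPM in Nur77-guide cells, against 16.3, 15.6 and 15 CPM in scrambled-guide cells (log2 fold change -1.52 ± 0.26, adjusted p = 0.00136). The tetraspanin Tspan32 had 7.11, 8.11 and 5.07 CPM in Nur77-guide cells, against 16.1, 21 and 32.6 CPM in scrambled-guide cells (log2 fold change -1.78 ± 0.31, adjusted p = 0.0023). Lrrc32, which encodes GARP, a docking receptor for latent TGF-β, had 69.9, 74.7 and 72.5 CPM in Nur77-guide cells and 107, 102 and 116 CPM in scrambled-guide cells (log2 fold change -0.58 ± 0.12, adjusted p = 0.00773).

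The same side held further low-level genes. Drc1, a subunit of the dynein regulatory complex of cilia, had 11.3, 10.7 and 4.39 CPM in Nur77-guide cells and 19.8, 22 and 28.5 CPM in scrambled-guide cells (log2 fold change -1.43 ± 0.29, adjusted p = 0.0122). Pacsin1, an adaptor of membrane trafficking, had 2.57, 2.64 and 4.73 CPM in Nur77-guide cells and 9.09, 11.2 and 7.08 CPM in scrambled-guide cells (log2 fold change -1.44 ± 0.36, adjusted p = 0.047). Rgs10, which shortens signalling by G proteins, was lower by a log2 fold change of -0.77 ± 0.18 (adjusted p = 0.0367), and the adhesion molecule Amica1 by -0.57 ± 0.11 (adjusted p = 0.00506). At the very low end of the higher side, the serpin Serpinb9b had 28 reads over the 3 Nur77-guide libraries and 2 over the 3 scrambled-guide libraries, a ratio of 12.7 with a 95% interval from 3.21 to 110 that covers counting error only. Serpinb9b belongs to a family of close copies, and DESeq2 did not call it (adjusted p = 0.102).

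Transcripts of other blood cells were lower in the Nur77-guide libraries. Lyz2, the lysozyme of macrophages and granulocytes, had 5.93, 8.11 and 11 CPM in Nur77-guide cells, against 24.6, 26.4 and 35.6 CPM in scrambled-guide cells (log2 fold change -1.78 ± 0.24, adjusted p = 4.93e-05). Itga2b, the platelet integrin chain CD41, had 1.19, 0.377 and 1.52 CPM in Nur77-guide cells, against 11.8, 12.6 and 12.3 CPM in scrambled-guide cells (log2 fold change -3.52 ± 0.59, adjusted p = 0.0023). The neutrophil gene S100a8 had no read in the 3 Nur77-guide libraries, which allows up to 3 reads in a library, and 10, 15 and 24 reads in the scrambled-guide libraries, and was therefore at least 5.95-fold lower against a floor of 3 reads per library (adjusted p = 0.0149). Ngp, a neutrophil granule protein, had 3 reads over the Nur77-guide libraries and 143 over the scrambled-guide libraries, a ratio of 0.0191 with a 95% counting interval from 0.00389 to 0.0568. EdgeR called Ngp (adjusted p = 0.00999) and DESeq2 did not (adjusted p = 0.158). All 13 tested myeloid markers, of 23 listed, had values below 0. Their median of -1.31 did not move when S100a8 was set to its bound. Of the 13, 3 (23.1%) were called (Lyz2, S100a8 and Ngp), against 0.627% of all tested genes. A marker can pass the filter on low counts through the scrambled-guide libraries alone, so these figures depend partly on the filter. Listed markers that failed it went both ways. Camp had means of 0 CPM in Nur77-guide cells and 1.00 CPM in scrambled-guide cells, and Itgax 0.991 and 0.473 CPM.

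Summed over 22 myeloid markers, the level was 28.5 to 33.3 CPM in Nur77-guide cells and 68.1 to 108 CPM in scrambled-guide cells. Of the defining genes, Csf1r, Cd14 and Itgam did not pass (adjusted p of 0.273, 0.771 and 0.715), nor did the marker S100a9 (0.0971). Csf1r had 3, 4 and 1 reads in Nur77-guide libraries and 15, 11 and 10 in scrambled-guide libraries. The groups overlapped in Cd14 (3, 11 and 6 reads in Nur77-guide libraries, 10, 9 and 16 in scrambled-guide libraries). They also overlapped in Itgam (23, 4 and 12 reads in Nur77-guide libraries, 20, 20 and 26 in scrambled-guide libraries). Cst3, which many cell types express and which stood at 96.5 to 102 CPM in Nur77-guide cells and 102 to 119 CPM in scrambled-guide cells, is left out of that sum. The 13 red cell and platelet markers other than Itgb3 summed to 1.7 to 6.52 CPM in Nur77-guide cells and 35.7 to 62.3 CPM in scrambled-guide cells. Most of this was platelet: Pf4 had 17, 0 and 26 reads in Nur77-guide libraries and 60, 180 and 146 reads in scrambled-guide libraries, Ppbp had 0, 0 and 1 reads in Nur77-guide libraries and 32, 31 and 23 reads in scrambled-guide libraries, and Hba-a1 had none in any. Neither Pf4 nor Ppbp passed (adjusted p of 0.261 and 0.146). In bulk RNA, fewer cells of a type and less of its RNA per cell cannot be told apart. B cell markers (13 to 13.9 CPM in Nur77-guide cells, 8.39 to 15.1 CPM in scrambled-guide cells) and NK and gamma delta T cell markers (6.52 to 7.78 CPM in Nur77-guide cells, 5.87 to 7.99 CPM in scrambled-guide cells) overlapped between the guides.

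A further 2 of the lower called genes are known from myeloid cells. Clec4n, the lectin Dectin-2 of dendritic cells and macrophages, had 1.58, 1.7 and 0.845 CPM in Nur77-guide cells, against 5.99, 8.99 and 8.09 CPM in scrambled-guide cells (log2 fold change -2.48 ± 0.46, adjusted p = 0.00304). Ctss, the protease cathepsin S of antigen-presenting cells, had 69.7, 69 and 69.6 CPM in Nur77-guide cells, against 106, 95.4 and 101 CPM in scrambled-guide cells (log2 fold change -0.53 ± 0.10, adjusted p = 0.00372). Some genes called higher, such as Lilr4b (log2 fold change 0.66) and Bst1 (1.57), are also known from myeloid cells. The part of the other cell types in the called genes of either direction was not tested.

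**Figure D4:**
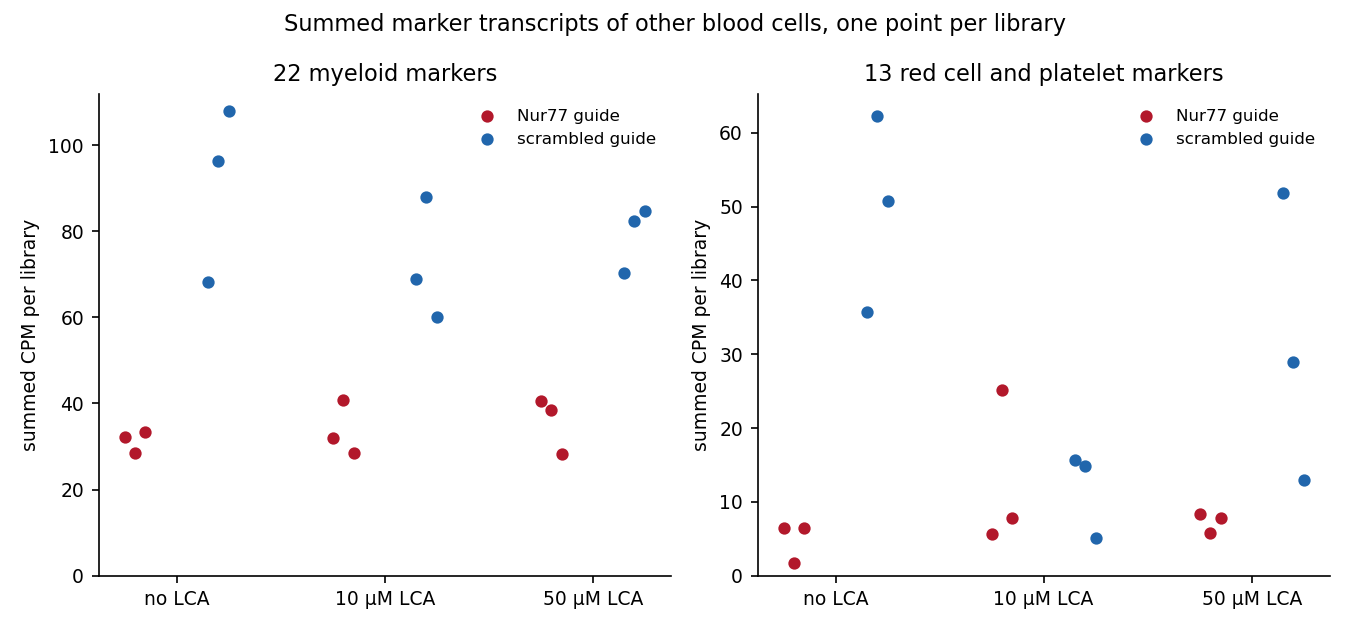
Summed CPM per library (y axis, from 0) of 22 myeloid markers (left) and 13 red cell and platelet markers (right), with Nur77-guide libraries in red left of scrambled-guide libraries in blue, at each LCA dose. Myeloid sums are 28.3 to 40.9 CPM in Nur77-guide cells and 60 to 108 CPM in scrambled-guide cells over the 3 doses and do not overlap, whereas red cell and platelet sums overlap at 10 µM.

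The guide comparison at the other LCA doses used other libraries of the same study. The labels do not say whether all doses came from 1 batch of edited cells, so the pairs may share that batch. At 10 µM LCA, 48 genes (0.412% of those tested) were called higher and 29 (0.249%) lower in Nur77-guide cells, 0.661% in all. At 50 µM LCA 165 (1.42%) were called higher and 61 (0.524%) lower, 1.94% in all. Of the 38 genes higher without LCA, all 38 had a value above 0 at either dose, as had 48.9% of all tested genes at 10 µM and 50.6% at 50 µM. Of these 38, 21 (55.3% of the 38, 43.8% of the 48) were called at 10 µM and 23 (60.5% of the 38, 13.9% of the 165) at 50 µM. Of the 35 lower genes, 34 had the same sign at each dose, 17 (48.6% of the 35, 58.6% of the 29) were called at 10 µM and 14 (40% of the 35, 23% of the 61) at 50 µM. No gene was called in the opposite direction. At both doses 18 higher and 10 lower genes were called again.

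The log2 fold change of Il7r was 1.06 without LCA, 1.26 at 10 µM and 1.26 at 50 µM, and that of Upp1 was 1.31, 1.27 and 1.49 in the same order. The mean level of Il7r without LCA, at 10 µM and at 50 µM was 131, 119 and 92.4 CPM in Nur77-guide cells, and 62.8, 49.6 and 38.7 CPM in scrambled-guide cells. Il24 had log2 fold changes of 1.70, 1.71 and 2.04, Ttc39c of 0.73, 0.66 and 0.96, and Axl of 0.71, 1.04 and 1.14 in the same order of doses. On the lower side, Dapl1 had -1.71, -1.31 and -1.08, Rgcc -0.83, -1.05 and -0.98, Spry1 -1.32, -1.10 and -1.27, and Lyz2 -1.78, -1.66 and -1.85. Lrrc32 had -0.58, -0.74 and -1.21.

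Without LCA alone, 12 of the higher and 14 of the lower genes were called. Malt1 had a log2 fold change of 0.62 without LCA, 0.24 at 10 µM (adjusted p = 0.475) and 0.06 at 50 µM (adjusted p = 0.877), and Nedd4 had 0.51, 0.25 and 0.24. Dusp2 had -0.48, -0.07 and 0.06, which made it the 1 lower gene with another sign at 50 µM. Itga2b had -3.52, 0.11 and -1.80 and was the 1 lower gene with another sign at 10 µM, the dose at which the summed red cell and platelet markers were 5.59 to 25.1 CPM in Nur77-guide cells and 5.08 to 15.7 CPM in scrambled-guide cells. A call at 1 dose and not at another does not show a difference between doses, and the test of the difference itself called no gene. The change of the guide effect at 10 µM against no LCA had 0 genes under an adjusted p of 0.05 by edgeR, 382 at an unadjusted p under 0.05 and 0 by DESeq2. At 50 µM edgeR called 0 (729 had an unadjusted p under 0.05), and 1 gene, Thbs1, was called by DESeq2.

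**Figure D5:**
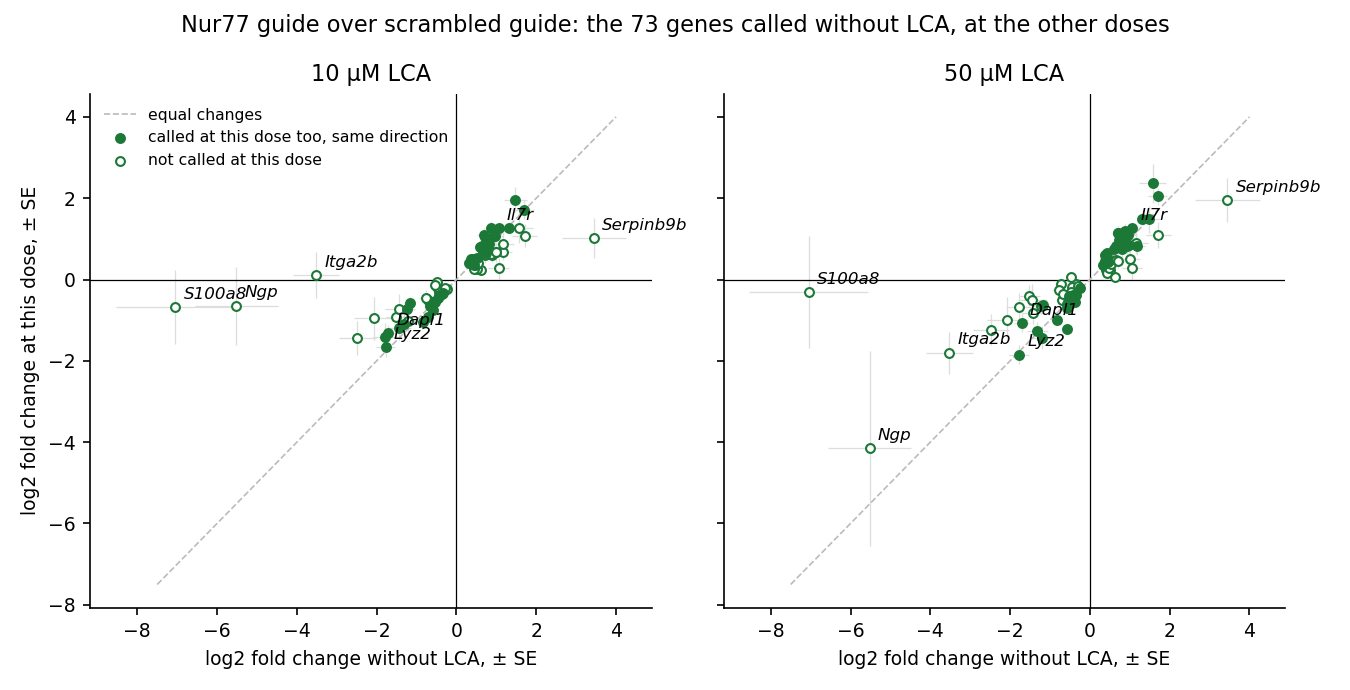
Log2 fold change, Nur77 guide over scrambled guide, of the 73 genes called without LCA (x axis) against the same comparison at 10 µM (left) and 50 µM LCA (right) on the y axis, with grey lines for ± SE and a dashed line of equal changes. Filled points are called at that dose too, and nearly all points lie in the lower left and upper right, with Itga2b at 10 µM just above 0.

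Transcript starts of the called genes were searched for the NR4A monomer site, since Nur77 binds DNA. A gene was counted if the window of any of its listed transcript starts held the motif. RefSeq (GRCm38.p6) promoters, the 250 bases before a transcript start, were matched by symbol for 29 of the 38 higher and 21 of the 35 lower genes, and both strands were read. The NBRE, AAAGGTCA, was found in 1 of the 29 (3.45%, P2ry14) and in 0 of the 21, against 1.12% of 9005 matched tested genes and 1.55% of 27025 genes in the table. Its shorter core, AGGTCA, which every NBRE also contains, was found in 3 of the 29 (10.3%, H2-Q10, Jdp2 and P2ry14) and in 1 of the 21 (4.76%, Ctss), against 12.8% of the tested genes and 15.8% of the table. A match is a match of letters and does not show binding, and no match says only that these letters are not in these windows. The P2ry14 window (chr3:59131329-59131578, minus strand) is shown as the only one with a whole NBRE, and the Jdp2 (chr12:85599166-85599415, plus strand) and Ctss (chr3:95526536-95526785, plus strand) windows as a higher and a lower gene with the core alone. The P2ry14 and Jdp2 windows lie inside the gene spans (chr3:59114623-59153492 and chr12:85598656-85639878), before internal transcript starts and not at the outer gene start. The motif is in capitals, 77 bases before the transcript start in P2ry14, 190 in Jdp2 and 136 in Ctss.
P2ry14: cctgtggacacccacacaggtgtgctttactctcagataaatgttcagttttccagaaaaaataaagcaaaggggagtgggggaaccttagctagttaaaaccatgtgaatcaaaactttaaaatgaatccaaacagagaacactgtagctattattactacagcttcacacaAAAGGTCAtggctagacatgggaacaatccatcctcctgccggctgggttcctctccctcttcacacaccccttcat
Jdp2: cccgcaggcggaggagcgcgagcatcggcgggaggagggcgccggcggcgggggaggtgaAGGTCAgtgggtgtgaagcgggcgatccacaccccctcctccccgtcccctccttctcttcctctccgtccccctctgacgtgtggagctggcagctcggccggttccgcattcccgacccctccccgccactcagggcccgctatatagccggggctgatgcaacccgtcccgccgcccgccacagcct
Ctss: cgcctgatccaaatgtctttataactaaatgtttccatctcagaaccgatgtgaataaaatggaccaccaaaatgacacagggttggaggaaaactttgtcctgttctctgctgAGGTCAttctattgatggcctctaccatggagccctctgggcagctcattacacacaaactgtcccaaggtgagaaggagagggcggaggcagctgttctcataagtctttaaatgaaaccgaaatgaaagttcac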

How the data were processed

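The deposited table holds raw read counts for 24537 gene symbols in 18 libraries, which the authors did not normalize. Per the submitters' processing notes, STAR, HOMER and DESeq2 and the builds GRCm38 and mm10 were used, with no versions. Trimming, counting rules and strand are not given in the sources used here, so reads of overlapping or antisense genes and of near-identical copies cannot be told apart.

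All 18 libraries entered one edgeR 4.0.16 fit (R 4.3.3) with a mean for each of 6 groups (guide by LCA dose). Genes were filtered with filterByExpr by group, leaving 11651. Libraries were TMM-scaled, and robust quasi-likelihood F tests were adjusted by Benjamini-Hochberg over all tested genes, with calls under 0.05. Standard errors were obtained by dividing each log2 fold change, without its sign, by the root of its F value. CPM use TMM-scaled library sizes. The biological coefficient of variation was 0.0984. DESeq2 1.42.0 and limma 3.58.1 served as alternatives, and the scripts were tested on simulated counts. No 2 libraries were copies: squared differences scaled by counting error averaged 2.44 to 4.54 within the control groups. Depth limits low genes: 1 read is about 0.2 CPM. Intervals on reads are exact binomial ones and, like the floor of 3 reads, cover counting error only, since no molecular identifiers are recorded.

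The groups, the gene lists and the tests were chosen with earlier results of these data known. Named by rule were the Nr4a genes, the neighbours of Nr4a1, the 12 called genes with the highest and the 12 with the lowest log2 fold change at a mean of at least 5 CPM without overlap of the groups, the 6 with the smallest p in each direction, and up to 4 called members per list and direction. Other called genes, and genes given although they did not pass, were chosen after their values were seen. Positions and promoters are RefSeq's for GRCm38.p6.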

Additional observations from a re-analysis of the deposited data

How the results depend on the processing

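Calls without LCA (73, of which 38 higher and 35 lower) numbered 141 (71 and 70) with no filter on low counts, 211 (115 and 96) in a fit of the 6 control libraries alone, 167 (89 and 78) with limma-voom sample quality weights and 13 (4 and 9) with glmTreat against a log2 fold change of 0.5. They stayed within 1.5 times the count with DESeq2 (98), DESeq2 size factors (72), a mean of at least 5 CPM (69) and olfactory, vomeronasal and trace amine receptor counts as a covariate (92). Leaving out 1 control library gave 28 to 53 calls (14 to 28 higher and 14 to 25 lower). With a replicate block there were 63 calls (35 and 28), 62 of them among the 73. Same-numbered libraries of the 2 control groups showed no shared deviation (correlations 0.00352, -0.0416 and -0.0186), and differently numbered ones reached 0.0366. Values this close to 0 cannot show whether same-numbered libraries share a mouse or culture. Of the 73 genes, DESeq2 kept 71 (not Serpinb9b and Ngp), and no sign changed in any alternative where a gene had a value. Called genes found again at 10 µM were 38 of the 73 and, with DESeq2, 58 of its own 98 calls. At 50 µM they were 37 of the 73 and, with DESeq2, 54 of its own 98. The test of the change of the guide effect at 50 µM called 0 genes, and with DESeq2 1 (Thbs1). Leaving out 1 library turned the sign of Nr4a1 (-0.114 to 0.323) and of Nr4a3 (-0.623 to 0.0853). The causes of these moves were not tested, apart from fewer genes or libraries where a setting removes them. Depth limits how precisely genes with 0 to 3 reads in a group (Serpinb9b, Ngp and S100a8) are measured.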

Other observations

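Among the 73 called genes, 2 pairs lie within 500 kb of each other. Alpk2 (log2 fold change 1.71) and Malt1 (0.62), both higher in Nur77-guide cells, are 37.1 kb apart on chromosome 18 (GRCm38 positions from 65265529 and from 65430939). The unnamed transcript 1110032F04Rik (-1.21) and Smc4 (-0.29), a condensin subunit, both lower, are 132.6 kb apart on chromosome 3. On chromosome 15, which holds Nr4a1, 3 of 452 tested genes were called (0.664%, against 0.627% of all tested genes): Il7r, Tmem71 and Gramd4. Their starts lie 91.7, 34.7 and 15.2 Mb from that of Nr4a1.

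The changes of the guide effect with LCA that had the smallest p did not pass. Itga2b had a log2 fold change 3.63 ± 0.84 higher at 10 µM than without LCA (adjusted p = 1). Thbs1, which encodes the matrix protein thrombospondin 1 of platelets and other cells, had a log2 fold change of -0.93 ± 0.34 without LCA and 1.68 ± 0.34 at 50 µM, a difference of 2.60 ± 0.48 (adjusted p = 0.172 by edgeR).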
